A study of Mus musculus with 24 samples.

Results

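The proteasome is the barrel-shaped protease that degrades proteins tagged with ubiquitin. Its core particle stacks outer rings of alpha subunits, which gate the entry, around inner rings of beta subunits, some of which carry the proteolytic sites. Regulatory particles of ATPases and non-ATPase subunits sit on its ends, bind and unfold ubiquitinated proteins, and can be replaced by other activators. Immune cells, and other cells under interferon, exchange the catalytic beta subunits for inducible ones, giving the immunoproteasome. Genes encoding these parts were followed through formation of the mouse diaphragm by taking every gene whose symbol begins with Psma, Psmb, Psmc, Psmd, Psme, Psmf or Psmg, apart from Psmc3ip, a recombination factor. Of 19351 genes measured by a probe set assigned to them alone, 49 met this rule. A further symbol, Psme2b, was named only on a probe set shared with other genes and has no value here. One of the 49, Psme3ip1, is covered by its symbol and is not a subunit: it encodes a protein that binds the activator Psme3.

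Embryos of C57BL/6J mice, with no treatment or genotype given beyond the strain, were sampled at 3 stages named by embryonic day: E11.5 and E12.5, when the primordial diaphragm consists of the pleuroperitoneal folds, and E16.5, the diaphragm proper. Each stage has 8 samples. Tissue was cut out by laser capture from transverse sections at E11.5 and E12.5 and from sagittal sections at E16.5, and the amplified RNA of each sample was measured on an Affymetrix Mouse Gene 1.0 ST array of its own. Sample titles call all 3 stages folds, although E16.5 tissue is muscularised. The labels do not say which embryo a sample came from or how many were pooled, so p-values measure only the spread between these arrays. Values are log2 intensities in which 1 unit is a doubling, and the level of one gene is not set against that of another, since probes differ in brightness.

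The tissue matched its stage labels in its markers. Of 10 skeletal muscle markers, 9 were higher at E16.5 than at E11.5, and array means over the list ranged over 8.31 to 9.54 in E11.5 tissue, 8.60 to 11.48 in E12.5 tissue and 12.08 to 12.63 in E16.5 tissue. Of 9 markers of dividing cells, 8 were lower at E16.5 than at E11.5. Of 10 markers of fold mesenchyme, 7 were lower and 1 was higher. Liver transcripts also moved with stage, with 10 of 10 hepatocyte markers higher at E16.5 than at E11.5. The E12.5 arrays were uneven: replicate 2 had the highest hepatocyte mean of its stage at 12.12 and the lowest muscle mean at 8.60, whereas replicate 3 had the highest muscle mean at 11.48. At E16.5 replicates 1 to 4 and replicates 5 to 8 formed separate sets, with 11.6% of all genes and 6 of 49 proteasome genes (12.2%) not overlapping between them. In such mixed tissue, fewer cells of a type and less RNA per cell cannot be told apart, and the part of these shifts in the results that follow was not tested.

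Proteasome genes gave bright array signals, a statement about probe brightness and not about transcript abundance. Averaged over all arrays, 34 of 49 lay among the brightest 10% of genes, 3 lay below the median gene, and the median member stood at percentile 95.0. Psma8, which encodes the testis form of an alpha subunit, was the exception at the low end: its values were below the lower quartile of their array in 8 of 8 E11.5 arrays, 7 of 8 E12.5 arrays and 8 of 8 E16.5 arrays, so its signal cannot be told from background. No member was among the 20 brightest genes of any array. The stage means of a member spanned a median of 0.21 log2 units, against 0.23 for all genes and 0.42 for the brightest 10%. Only 5 members spanned more than 0.5, or 10.2%, against 22.9% of all genes. The spread between arrays of a stage, as a median SD over members, was 0.24 for E11.5, 0.15 for E12.5 and 0.18 for E16.5, against 0.21, 0.17 and 0.19 for all genes at those stages.

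Between E12.5 and E11.5 no proteasome gene passed the test, here and throughout limma with Benjamini-Hochberg adjustment over all 19351 genes at a threshold of 0.05. The background was small as well, at 0.388% of all genes. Before adjustment 5 members (10.2%) had a p-value below the threshold, as did 14.4% of all genes. All 5 were higher at E12.5: Psma1, Psma3, Psmb4, Psmb9 and Psmd13. The unequal-variance test called 0 members and 0 of all 19351 genes, so it tells nothing about the members. Most members lay slightly above 0: 41 of 49 (83.7%) had a positive change against 42.2% of all genes, and the median change was 0.10 log2 units for members and -0.03 for all genes. Part of that gap goes with brightness: without the dimmest 50% of genes the medians were 0.10 for members and 0.04 for the genes kept. With arrays centred on their 75th percentile the members' median was 0.03 and 30 of 49 changes were positive, beside a median of -0.10 for all genes. Psmb4, a beta subunit that closes the ring without a catalytic site, came nearest to the threshold. Its log2 intensity lay between 12.44 and 12.72 (median 12.63) at E12.5, against 11.96 to 12.56 (median 12.28) at E11.5, and 5 of 8 arrays at E12.5 exceeded every array at E11.5. The change of 0.30 ± 0.07 (SE) had an adjusted p of 0.0713 in limma. It passed without E11.5 replicate 6 (limma adjusted p = 0.0323) and with a trended, robust variance prior (0.0472).

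Between E16.5 and E12.5, 8 of 49 proteasome genes (16.3%) passed the test, a smaller share than the 27.1% of all genes that did. Psmb3, Psmc3 and Psmd6 were higher at E16.5, and Psma7, Psmc4, Psmd14, Psmd5 and Psme3 were lower. The 3 higher ones are 6.12% of members, where 2223 of all 19351 genes were higher, and the 5 lower ones 10.2%, against 15.6% lower. None changed 2-fold, as 5.47% of all genes did. Without the dimmest 50% of genes, 8 of 46 members passed, against 44.8% of genes. The members' median change was -0.04 log2 units, against -0.02 for all genes. The balance of higher and lower calls depended on scaling. It was 3 to 5 on the deposited values, 1 to 10 after a further quantile normalization and 4 to 2 with arrays centred on their 75th percentile. Only Psma7 and Psmc3 had arrays of these stages that did not overlap (4.08% of members, against 10.1% of all genes).

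Between E16.5 and E11.5, 15 members (30.6%) passed, close to the 33.5% of all genes. That closeness depends on dim genes, which passed less often. Without the dimmest 50% of genes, 14 of 46 members passed, against 48.3% of genes. Of the 15, 11 were higher at E16.5 (22.4% of members, against 13.8% of all genes) and 4 were lower (8.16%, against 19.6%). The higher ones were Psma3, Psmb3, Psmb4, Psmb5, Psmb8, Psmb9, Psmb10, Psmc3, Psmd6, Psmd10 and Psmd13, and the lower ones Psma7, Psmb11, Psme3ip1 and Psmf1. The median change was 0.10 log2 units for members and -0.08 for all genes, but -0.02 and -0.07 after a further quantile normalization, when 5 were called higher and 5 lower. Centring arrays on their median or 75th percentile gave 8 higher and 4 lower. Psmc3 and Psmd6 had arrays that did not overlap between the stages (4.08% of members, against 9.08% of all genes), and Psmd10 alone changed 2-fold (2.04%, against 6.59%). Both comparisons with E16.5 share its 8 arrays, so their values are given side by side below and not as support for each other. The mean was highest at E12.5 for 28 of 49 members (57.1%, against 24.9% of all genes). It was highest at E16.5 for 18 (36.7%, against 29.2%) and at E11.5 for 3 (6.12%, against 45.9%). These counts were made on the deposited values only. There, 41 members had a positive change at E12.5 against E11.5 and 18 at E16.5 against E12.5. With arrays centred on their 75th percentile those numbers were 30 and 26.

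**Figure D1:**
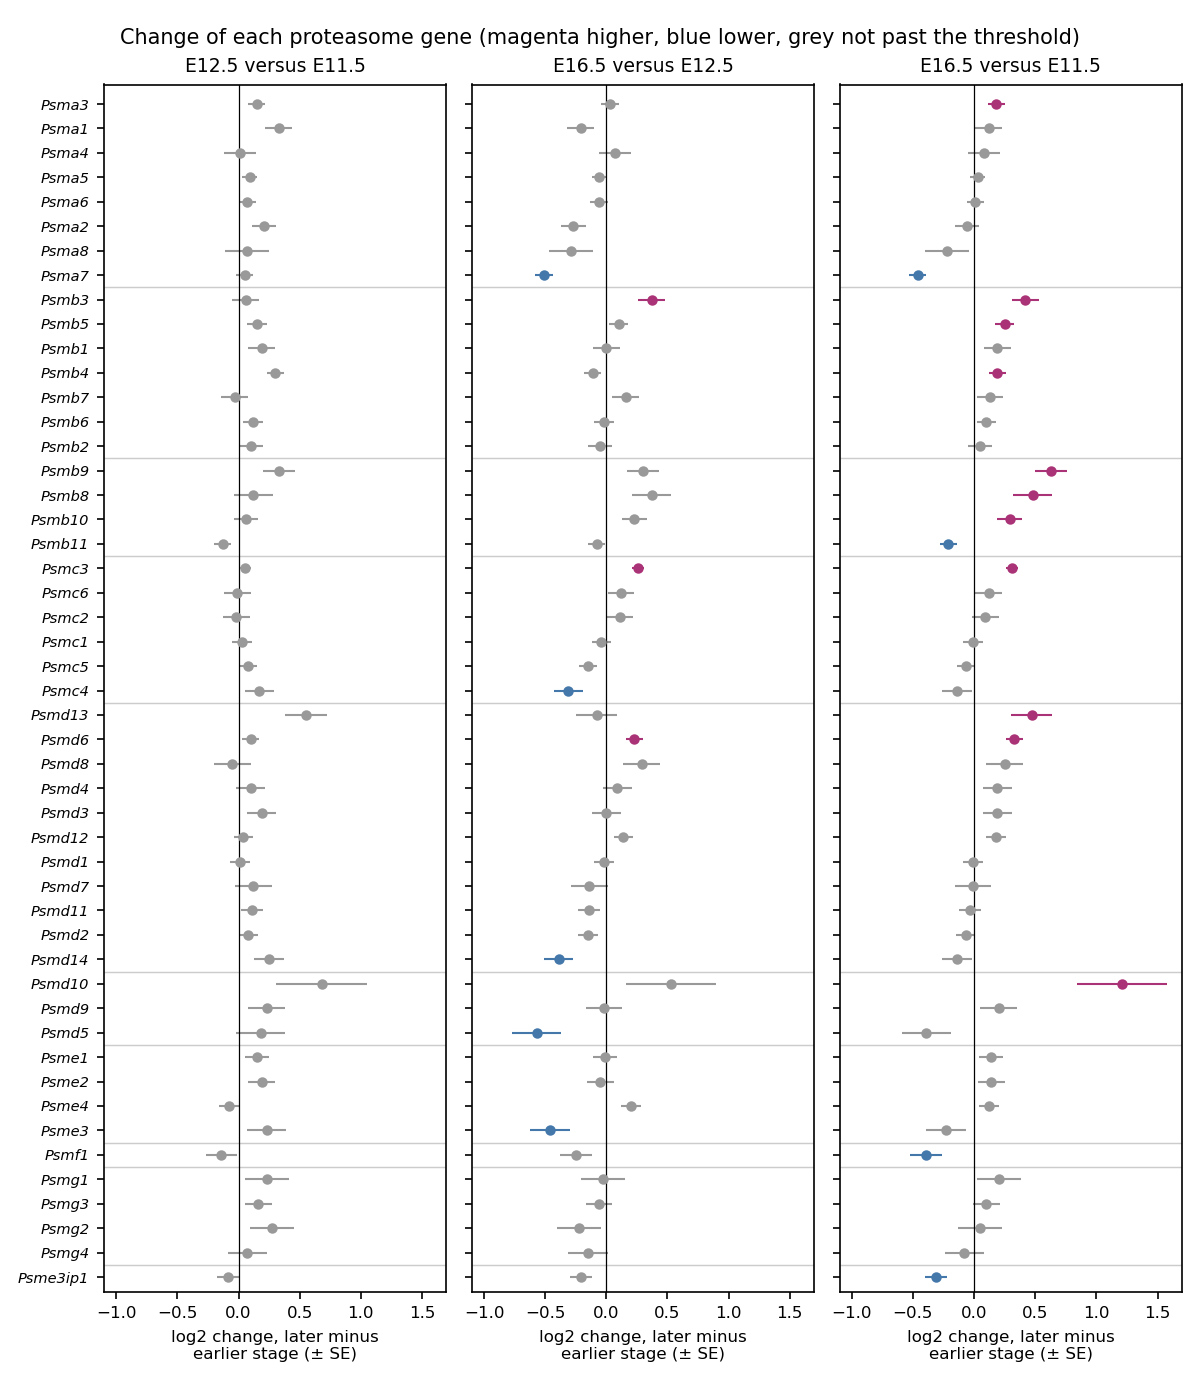
Change of each of the 49 proteasome genes in the 3 comparisons, as log2 change of the later minus the earlier stage (points) with its standard error (bars), grouped by role from alpha subunits at the top to Psme3ip1 at the bottom. Coloured points passed the limma test: 0 in E12.5 versus E11.5, 8 in E16.5 versus E12.5 and 15 in E16.5 versus E11.5.

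**Figure D2:**
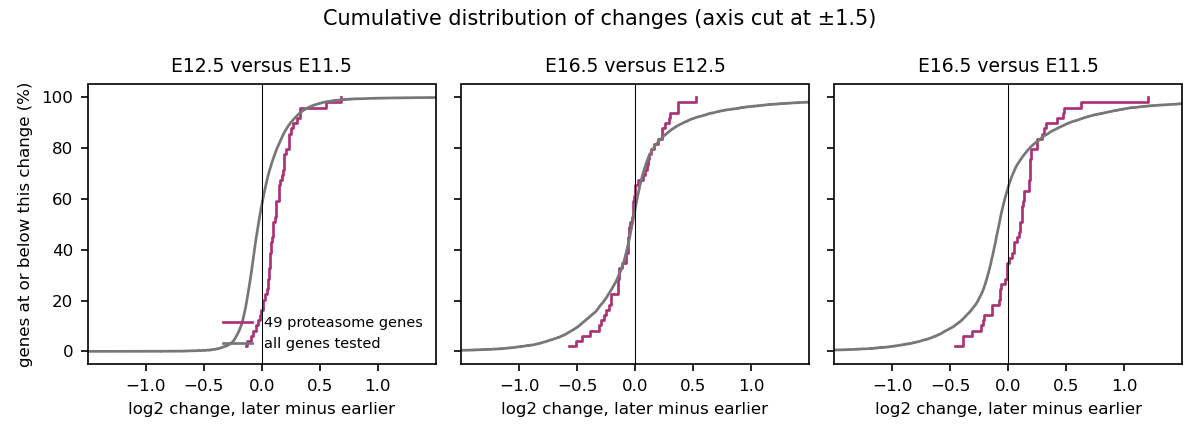
Share of genes (%) at or below each log2 change, for the 49 proteasome genes and all 19351 genes, in each comparison of a later with an earlier stage. The member curve lies right of the curve of all genes over most of its height in E12.5 versus E11.5 (medians 0.10 and -0.03) and in E16.5 versus E11.5 (0.10 and -0.08), and close to it in E16.5 versus E12.5 (-0.04 and -0.02); the axis is cut at 1.5 in both directions.

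Among the 8 alpha subunits, which form the outer rings and their gate, Psma7 stood apart. Its log2 intensity lay between 12.21 and 12.69 (median 12.55) at E11.5, between 12.44 and 12.70 (median 12.58) at E12.5, and between 11.93 and 12.25 (median 12.03) at E16.5. All 8 arrays at E16.5 were below every array at E12.5, and 7 of 8 were below every array at E11.5, where replicate 1 alone reached down to 12.21. The change was -0.51 ± 0.07 (SE) at E16.5 against E12.5 (limma adjusted p = 2.23e-06) and -0.46 ± 0.07 against E11.5 (limma adjusted p = 6.87e-06). Psma7 kept its call in both comparisons under every alternative run. No other alpha subunit passed as lower on the deposited values. After a further quantile normalization, Psma1, Psma2 and Psma5 also passed as lower at E16.5 against E12.5 (limma adjusted p = 0.0141, 0.00766 and 0.0377).

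Psma3 had the highest change of the alpha subunits at E16.5 against E11.5. Its values lay between 11.97 and 12.34 (median 12.24) at E11.5, 12.21 and 12.52 (12.32) at E12.5, and 12.19 and 12.46 (12.40) at E16.5, with 6 of 8 arrays at E16.5 above all at E11.5. The rise of 0.18 ± 0.07 (limma adjusted p = 0.0367) was lost under all 3 further scalings (limma adjusted p of 0.0570 to 0.342) and when any of E11.5 replicates 1, 2 and 7 or E16.5 replicates 1, 2, 3, 4 and 7 was left out (up to 0.0844). It was lost too in a fit of those stages alone (0.0521) and without E16.5 replicates 1 to 4 (0.299). Psma3 has 3 probe sets, of which the brightest was used, and the mean over them gave 0.24 (limma adjusted p = 0.0149). Psma1, Psma2, Psma4, Psma5, Psma6 and Psma8 did not pass in any comparison on the deposited values, with changes at E16.5 against E11.5 of -0.06 to 0.12 apart from Psma8, whose signal gives no usable change. Psma2 came nearest, at -0.27 ± 0.10 for E16.5 against E12.5 (limma adjusted p = 0.0560). It passed in a fit of those stages alone (0.00323), in the unequal-variance test (0.00240) and without any 1 of E11.5 replicates 1, 5 and 8, E12.5 replicate 7 and E16.5 replicate 7 (down to 0.0217). It passed too after a further quantile normalization (0.00766), without the dimmest 25% or 50% of genes (0.0473 and 0.0418) and with array weights (0.0499).

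All 7 constitutive beta subunits had positive changes at E16.5 against E11.5 on the deposited values, of 0.05 to 0.42. Of all genes, 35.5% were positive there. The 3 that passed are 42.9% of the group, against 33.5% of all genes. The signs depend on scaling. After a further quantile normalization 22 of 49 members were positive, against 32 on the deposited values, and Psmb4 and Psmb5 changed by 0.06 and 0.10. Psmb3, a structural subunit, lay between 10.57 and 11.29 (median 10.68) at E11.5, 10.34 and 11.21 (10.90) at E12.5, and 10.99 and 11.46 (11.15) at E16.5. Its stages overlapped, in part through E11.5 replicate 8 at 11.29, which was well above the next array of its stage at 10.80. The rise was 0.42 ± 0.11 against E11.5 (limma adjusted p = 0.00578) and 0.37 ± 0.11 against E12.5 (0.0178). After a further quantile normalization neither passed (0.0566 and 0.0974). Averaging its 2 probe sets gave 0.49 against E11.5 (0.0139) and 0.32 against E12.5 (0.124), and without E16.5 replicates 5 to 8 neither comparison passed (0.0769 and 0.158).

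Psmb5 carries the chymotrypsin-like site, the main target of proteasome inhibitors. It lay between 10.80 and 11.47 (median 11.16) at E11.5, 11.09 and 11.45 (11.34) at E12.5, and 11.21 and 11.63 (11.41) at E16.5. The ranges overlapped, with 3 of 8 arrays at E16.5 above all at E11.5. The rise of 0.25 ± 0.08 against E11.5 (limma adjusted p = 0.0202) was lost after a further quantile normalization (0.370), without E16.5 replicates 1 to 4 (0.244) and in the unequal-variance test (0.0516). Psmb4 lay between 12.32 and 12.60 (median 12.49) at E16.5, and 2 of 8 of these arrays were above all at E11.5. It rose by 0.19 ± 0.07 against E11.5 (limma adjusted p = 0.0469), close to the threshold: 14 of 24 arrays, left out one at a time, ended this call (up to 0.110 without E11.5 replicate 7), as did all 3 further scalings (0.0617 to 0.520), array weights (0.0843), the unequal-variance test (0.0875) and a fit of those stages alone (0.0841). Those arrays were E11.5 replicates 1, 3, 7 and 8, E12.5 replicates 3, 4, 6 and 8, and E16.5 replicates 1, 2, 3, 4, 7 and 8.

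The other catalytic subunits did not pass. Psmb6, with the caspase-like site, lay between 12.13 and 12.52 (median 12.29) at E11.5, 12.25 and 12.57 (12.40) at E12.5, and 12.18 and 12.59 (12.40) at E16.5, a change of 0.10 ± 0.08 against E11.5 (limma adjusted p = 0.325). Psmb7, with the trypsin-like site, changed by 0.13 ± 0.11 (limma adjusted p = 0.364). Psmb2 had the lowest change of the group, 0.05 ± 0.10 (limma adjusted p = 0.722), between 10.81 and 11.34 (median 11.19) at E11.5, 11.08 and 11.47 (11.25) at E12.5, and 10.77 and 11.45 (11.25) at E16.5. Psmb2 and Psmb6 also separated the 2 sets of E16.5 arrays: replicates 1 to 4 averaged 11.39 and 12.54, against 11.01 and 12.25 in replicates 5 to 8.

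The windows around the starts of Psmb5 and Psmb6 are shown because both contain the letters of the antioxidant response element, to which the factor Nfe2l1, a known activator of proteasome genes, can bind. They span 250 bases before to 50 after the RefSeq start on build GRCm38.p6, at chr14:54617946-54618245 on the minus strand for Psmb5 and chr11:70525107-70525406 on the plus strand for Psmb6. Capitals mark TGACNNNGC, searched on both strands.
Psmb5: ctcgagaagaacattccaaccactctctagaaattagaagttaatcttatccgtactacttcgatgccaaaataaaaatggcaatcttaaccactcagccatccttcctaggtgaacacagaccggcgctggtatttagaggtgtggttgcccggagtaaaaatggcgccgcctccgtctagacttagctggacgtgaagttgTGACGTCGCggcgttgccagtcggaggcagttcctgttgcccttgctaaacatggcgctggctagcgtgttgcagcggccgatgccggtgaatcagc
Psmb6: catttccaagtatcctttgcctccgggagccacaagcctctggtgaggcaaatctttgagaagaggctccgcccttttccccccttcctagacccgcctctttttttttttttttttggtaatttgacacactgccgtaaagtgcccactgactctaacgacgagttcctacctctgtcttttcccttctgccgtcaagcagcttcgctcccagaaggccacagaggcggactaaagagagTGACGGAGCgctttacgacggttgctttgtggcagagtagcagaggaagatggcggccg
The match starts 47 bases before the start of Psmb5, as TGACGTCGC, and 9 bases before that of Psmb6, as TGACGGAGC. Windows were at hand for 41 of 49 members, 45 windows in all, and 13.3% of them held this motif, against 12.4% of the 32851 mouse windows. The 6 members were Psmb5, Psmb6, Psmc6, Psmd12, Psmd9 and Psme4, of which Psmb5 alone passed a test on the deposited values. A match of letters does not show binding.

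All 4 genes for alternative catalytic subunits passed at E16.5 against E11.5, 3 in one direction and 1 in the other. Of all genes, 33.5% passed. Psmb8, Psmb9 and Psmb10, the inducible subunits, which replace Psmb5, Psmb6 and Psmb7 in the immunoproteasome and favour peptides suited to class I presentation, were higher. Psmb11, a subunit of the thymic cortex that is not part of the immunoproteasome and replaces Psmb5 there, was lower. Its signal was only about that of the median gene (percentile 46.0). None of the 4 passed at E16.5 against E12.5 on the deposited values, where their changes were 0.37, 0.30, 0.23 and -0.08 in that order.

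Psmb9 was the one of these whose call no alternative ended. It lay between 8.26 and 9.11 (median 8.46) at E11.5, 8.41 and 9.12 (8.95) at E12.5, and 8.73 and 9.59 (9.18) at E16.5. At E16.5, 4 of 8 arrays exceeded all at E11.5, where replicate 2 stood alone at 9.11 above a next value of 8.58. The rise of 0.63 ± 0.13, a 1.55-fold change, had a limma adjusted p of 0.000648. At E12.5 its change from E11.5 was 0.33 ± 0.13 (limma adjusted p = 0.268).

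Psmb8 lay between 7.05 and 8.07 (median 7.48) at E11.5, 7.33 and 7.91 (7.56) at E12.5, and 7.11 and 8.47 (7.99) at E16.5. The E16.5 arrays spread widely, with replicate 1 down at 7.11 and 5 of 8 above all at E12.5. The rise of 0.48 ± 0.16 against E11.5 (limma adjusted p = 0.0255) was lost without any 1 of E11.5 replicates 1, 3 and 4 or E16.5 replicates 4, 6 and 8 (up to 0.0582), in a fit of those stages alone (0.0613), with array weights (0.0849), in the unequal-variance test (0.0934) and without E16.5 replicates 5 to 8 (0.357). Against E12.5 it passed without E16.5 replicate 1 (limma adjusted p = 0.0130), without E16.5 replicates 1 to 4 (0.0121) and with the replicate number as a block (0.0478).

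Psmb10 lay between 7.86 and 8.53 (median 8.13) at E11.5, 7.93 and 8.65 (8.16) at E12.5, and 8.29 and 8.61 (8.44) at E16.5. Its E16.5 arrays were tightly grouped and overlapped the upper end of the earlier stages. The rise of 0.29 ± 0.10 against E11.5 (limma adjusted p = 0.0338) was lost without any 1 of E11.5 replicates 2, 3, 4 and 7 or E16.5 replicates 2, 6 and 8 (up to 0.0754), under all 3 further scalings (0.0536 to 0.0608), with array weights (0.0590), and without E16.5 replicates 1 to 4 (0.133) or 5 to 8 (0.123). Against E12.5 Psmb10 passed without E12.5 replicate 2 (limma adjusted p = 0.0321), the array with the highest hepatocyte mean of its stage, without E12.5 replicates 2 and 3 (0.0396) and with array weights (0.0389). Psmb11 lay between 7.30 and 7.73 (median 7.53) at E11.5, 7.21 and 7.59 (7.37) at E12.5, and 7.16 and 7.44 (7.33) at E16.5. Its fall of 0.21 log2 units against E11.5 (SE 0.07, limma adjusted p = 0.0301) was lost without any 1 of E11.5 replicates 2, 7 and 8 or E16.5 replicates 3, 5 and 8 (up to 0.0665), with array weights (0.0502), and without E16.5 replicates 1 to 4 (0.132) or 5 to 8 (0.101). All its values lay above the lower quartile of their array, but the gene was dropped with the dimmest 50% of genes. Whether its signal exceeded background was not tested.

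At the level of RNA, the change of each inducible gene was set against that of the constitutive gene it replaces. These differences were tested over arrays, with exact two-sided permutation tests adjusted over 9 tests. Exchange of subunits in assembled particles was not measured. No difference passed with all arrays on the deposited values. The largest was that of Psmb9 over Psmb6 at E16.5 against E11.5, 0.53 ± 0.17 (exact permutation p = 0.00963, adjusted 0.0867). The same pair differed by 0.32 ± 0.15 at E16.5 against E12.5 (exact permutation p = 0.0463, adjusted 0.208), with 6 of 8 arrays above all at E12.5. Psmb8 over Psmb5 gave 0.23 ± 0.23 and Psmb10 over Psmb7 gave 0.16 ± 0.16 at E16.5 against E11.5 (exact permutation, adjusted p = 0.502 for both). After a further quantile normalization the differences of Psmb9 over Psmb6 became 0.63 against E11.5 and 0.44 against E12.5 and passed (exact permutation, adjusted p = 0.0238 and 0.0399). Leaving out 1 array also let differences pass. Against E11.5, Psmb9 over Psmb6 was 0.63 without E11.5 replicate 2, the array in which Psmb9 stood alone, and 0.60 without E16.5 replicate 1 (exact permutation, adjusted p = 0.0196 and 0.0294). Without E16.5 replicate 1 the differences against E12.5 were 0.39 for Psmb9 over Psmb6 and 0.41 for Psmb8 over Psmb5 (exact permutation, adjusted p = 0.0420 and 0.0294).

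The start windows of Psmb8 and Psmb9 are shown because the genes lie close together in the class II region of chromosome 17 and Psmb9 shares its promoter with Tap1, the peptide transporter. On GRCm38.p6 (RefSeq) they span chr17:34197945-34198244 on the plus strand for Psmb8 and chr17:34187281-34187580 on the minus strand for Psmb9. Capitals mark the gamma-activated site TTCNNNGAA in Psmb8 and the CCAAT box, here as ATTGG on the other strand, in Psmb9.
Psmb8: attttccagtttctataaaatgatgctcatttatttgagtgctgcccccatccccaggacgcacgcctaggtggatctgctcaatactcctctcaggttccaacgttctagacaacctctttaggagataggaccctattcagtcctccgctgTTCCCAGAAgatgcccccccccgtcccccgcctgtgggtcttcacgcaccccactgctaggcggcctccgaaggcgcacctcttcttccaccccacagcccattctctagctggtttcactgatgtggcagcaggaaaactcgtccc
Psmb9: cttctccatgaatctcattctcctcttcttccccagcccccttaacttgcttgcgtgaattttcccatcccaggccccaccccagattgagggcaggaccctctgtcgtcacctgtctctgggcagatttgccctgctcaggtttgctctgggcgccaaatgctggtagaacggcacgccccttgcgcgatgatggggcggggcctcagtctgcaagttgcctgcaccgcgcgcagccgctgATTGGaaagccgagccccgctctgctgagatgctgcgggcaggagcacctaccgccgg
The window of Tap1 runs the opposite way and shares 275 bases with that of Psmb9. Psmb9 rose by 0.63 log2 units at E16.5 against E11.5. Tap1 was chosen here for this window after its value was seen. It lay between 7.08 and 7.43 (median 7.26) at E11.5, 6.83 and 7.46 (7.13) at E12.5, and 7.06 and 7.52 (7.20) at E16.5. Its change at E16.5 against E11.5 was -0.02 ± 0.08 (limma adjusted p = 0.856). The Tap1 signal was near or below the array medians of 7.45 to 7.57, and the difference between these 2 genes was not tested. The gamma-activated site letters occurred in 6.67% of member windows (Psmb8, Psmd2 and Psmg1), against 8.30% of all mouse windows. The interferon-stimulated response element, searched on both strands as GAAA, 2 bases of any kind and GAAA again, occurred in 11.1% of member windows (Psmb3, Psmd4, Psmd9, Psme1 and Psmg4), against 3.44% of all. CCAAT occurred in 33.3%, against 37.4%.

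Other genes of class I presentation moved unevenly, with 2 of 8 higher and 3 lower at E16.5 against E11.5. Of all genes, 13.8% were higher and 19.6% lower there, the shares to set beside every list of this paragraph. B2m, the light chain of class I molecules, rose by 0.82 ± 0.15 (limma adjusted p = 9.08e-05), between 10.36 and 11.25 (median 10.74) at E11.5, 10.57 and 11.98 (11.11) at E12.5, and 11.37 and 11.77 (11.60) at E16.5, where every array lay above all at E11.5. Erap1, which trims peptides, rose by 0.61 ± 0.17 (limma adjusted p = 0.00599), although 6 of 8 arrays at E11.5 were below the lower quartile of their array. Calr, a chaperone of class I folding, fell by 0.55 log2 units (SE 0.07, limma adjusted p = 2.43e-06). Macrophage transcripts moved unevenly with the same contrast: of 12 markers, 4 were higher (Lyz2, Mrc1, Tyrobp and Ptprc) and 1 was lower (Aif1). Of those not called, Cd68, Fcgr1, C1qb and Cx3cr1 had lower means at E16.5 than at E11.5, and Csf1r, Adgre1 and C1qa higher ones. The array means over that list were 7.75 to 8.12 in E11.5 tissue, 7.66 to 8.19 in E12.5 tissue and 7.91 to 8.45 in E16.5 tissue, with none of the 12 below the lower quartile in most arrays of a stage. Lyz2, a myeloid lysozyme, rose by 2.11 ± 0.29 (limma adjusted p = 3.16e-06) and Tyrobp, a myeloid adaptor, by 0.87 ± 0.17 (0.000341). Mrc1 and Ptprc did not pass without E16.5 replicates 5 to 8 (0.0713 and 0.217), nor did Aif1 without any 1 of E11.5 replicates 1, 2, 5 and 6 or E16.5 replicates 3 and 4 (up to 0.0743). Of 9 lymphocyte and mast cell markers, 2 were higher and none lower: Cpa3, a mast cell protease, by 1.16 ± 0.22 (limma adjusted p = 0.000154) and Cd3e, a T cell receptor chain, by 0.24 ± 0.08 (0.0286). Cpa3 was below the lower quartile of its array in 8 of 8 arrays at E11.5 and 2 of 8 at E16.5, and 5 of the 9 were below it in most arrays at E16.5 and 6 at each earlier stage. The call of Cd3e was lost without any 1 of E11.5 replicate 4 and E16.5 replicates 6 and 7 (up to 0.0629), with arrays centred on their 75th percentile (0.0899) and without E16.5 replicates 1 to 4 (0.0995) or 5 to 8 (0.111). Array means over the 9 were 5.91 to 6.28 in E11.5 tissue, 5.97 to 6.19 in E12.5 tissue and 6.00 to 6.47 in E16.5 tissue. Endothelial transcripts moved with the contrast as well, with 6 of 10 markers higher and none lower, and array means over the list were 7.99 to 8.46 in E11.5 tissue, 7.88 to 8.41 in E12.5 tissue and 8.35 to 9.31 in E16.5 tissue. Cdh5, the cadherin of endothelial junctions, rose by 1.28 ± 0.21 (limma adjusted p = 2.90e-05). The part of macrophages, lymphocytes, mast cells and endothelium in the values of Psmb8, Psmb9 and Psmb10 was not tested.

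**Figure D3:**
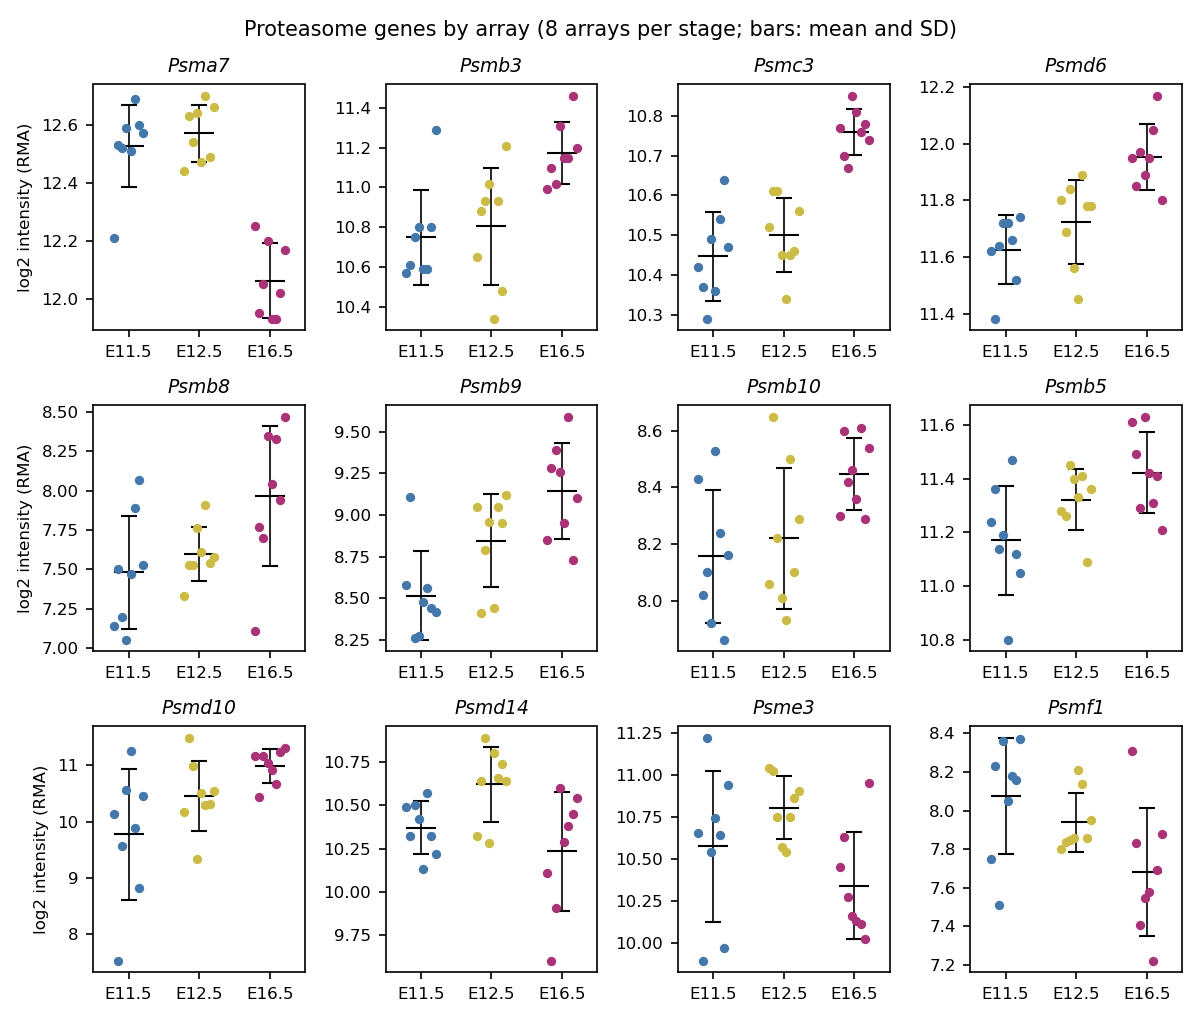
Log2 intensity of 12 proteasome genes in each array (points) at the 3 stages, with the mean and SD of 8 arrays (bars); each panel has its own axis, which does not start at 0. Psma7 at E16.5 (11.93 to 12.25) lies below all arrays at E12.5, Psmc3 at E16.5 (10.67 to 10.85) lies above all arrays of both earlier stages, and Psmd10 spreads from 7.52 to 11.26 at E11.5.

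The 6 ATPases of the regulatory particle unfold substrates and open the gate. Psmc3 had the lowest adjusted p of the members that rose. It lay between 10.29 and 10.64 (median 10.44) at E11.5, 10.34 and 10.61 (10.49) at E12.5, and 10.67 and 10.85 (10.76) at E16.5, so that all 8 arrays at E16.5 were above every earlier array. The rise was small and precise, 0.31 ± 0.05 against E11.5 (limma adjusted p = 6.87e-05) and 0.26 ± 0.05 against E12.5 (0.000683), and both calls were kept under every alternative run. Psmc4 went the other way at E16.5 against E12.5. It lay between 9.58 and 10.69 (median 10.43) at E11.5, 10.33 and 10.74 (10.52) at E12.5, and 9.97 and 10.53 (10.15) at E16.5, with 6 of 8 arrays at E16.5 below all at E12.5. Its fall of 0.31 log2 units (SE 0.12, limma adjusted p = 0.0467) was lost on leaving out any 1 of 16 arrays (up to 0.0925), with arrays centred on their median (0.0690) or 75th percentile (0.0965), with a trended, robust variance prior (0.0504), without E12.5 replicates 2 and 3 (0.107) and without E16.5 replicates 5 to 8 (0.381). Those arrays were E11.5 replicates 1, 4, 6 and 7, E12.5 replicates 1, 2, 3, 6, 7 and 8, and E16.5 replicates 2, 3, 5, 6, 7 and 8. Against E11.5, Psmc4 changed by -0.14 ± 0.12 (limma adjusted p = 0.366), and it passed there without E11.5 replicate 2 (0.0244), whose value of 9.58 was the lowest. Psmc1, Psmc2, Psmc5 and Psmc6 did not pass on the deposited values, with changes of -0.15 to 0.12 at E16.5 against E12.5 and of -0.07 to 0.12 against E11.5.

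The 11 non-ATPase subunits form the lid and part of the base and receive ubiquitin chains. At E16.5 against E11.5, 2 of them rose and none fell. These are 18.2% of the group, a smaller share than the 33.5% of all genes that passed. Psmd6, a scaffold of the lid, lay between 11.38 and 11.74 (median 11.65) at E11.5, 11.45 and 11.89 (11.78) at E12.5, and 11.80 and 12.17 (11.95) at E16.5. All 8 arrays at E16.5 exceeded every array at E11.5, and 6 of 8 exceeded every array at E12.5. The rise was 0.33 ± 0.07 against E11.5 (limma adjusted p = 0.000652) and 0.23 ± 0.07 against E12.5 (0.0135), and neither passed after a further quantile normalization (0.0535 and 0.166). The rise against E12.5 was also lost without E16.5 replicates 5 to 8 (0.106).

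Psmd13, another lid subunit, lay between 7.94 and 9.64 (median 9.06) at E11.5, 9.24 and 9.70 (9.48) at E12.5, and 9.23 and 9.64 (9.40) at E16.5. The E11.5 arrays reached low values, and no array at E16.5 was above all at E11.5. The rise of 0.47 ± 0.17 against E11.5 (limma adjusted p = 0.0292) was lost without any 1 of E11.5 replicates 1, 2 and 5 or E16.5 replicates 1 and 5 (up to 0.0659), in a fit of those stages alone (0.0708), in the unequal-variance test (0.129) and without E16.5 replicates 1 to 4 (0.158) or 5 to 8 (0.0936). At E12.5 it was already 0.55 ± 0.17 above E11.5 (limma adjusted p = 0.152), and its change at E16.5 against E12.5 was -0.08 ± 0.17.

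Psmd14, the deubiquitinase that removes ubiquitin chains as substrates enter, lay between 10.13 and 10.57 (median 10.37) at E11.5, 10.28 and 10.89 (10.65) at E12.5, and 9.60 and 10.60 (10.33) at E16.5. Arrays at E12.5 were the highest, with 6 of 8 above all at E11.5. Psmd14 fell by 0.39 log2 units at E16.5 against E12.5 (SE 0.12, limma adjusted p = 0.0184), a call lost without E12.5 replicates 2 and 3 (0.0645), without E16.5 replicates 1 to 4 (0.231) and in the unequal-variance test (0.0666). Against E11.5 it changed by -0.14 ± 0.12 (limma adjusted p = 0.406). The other 8 did not pass on the deposited values: Psmd1 and Psmd2, the large scaffolds of the base, changed by -0.01 and -0.07 at E16.5 against E11.5, the ubiquitin receptor Psmd4 by 0.19, and Psmd3, Psmd7, Psmd8, Psmd11 and Psmd12 by -0.03 to 0.25.

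Psmd5, Psmd9 and Psmd10 encode chaperones that hold ATPases during assembly of the base, and Psmd10, also known as gankyrin, had the largest change of any member. It lay between 7.52 and 11.26 (median 10.02) at E11.5, 9.33 and 11.49 (10.41) at E12.5, and 10.44 and 11.30 (11.10) at E16.5. The stages overlapped widely, with 1 of 8 arrays at E16.5 above all at E11.5, and the SD in stage order was 1.16, 0.63 and 0.30. The rise of 1.21 ± 0.37, or 2.31-fold, against E11.5 (limma adjusted p = 0.0126) was kept with any 1 array left out. It was lost in the unequal-variance test (0.0704), without E16.5 replicates 1 to 4 (0.0716) and without replicates 5 to 8 (0.0777). Its start window, shown because it is the member with the largest change, lies on the X chromosome at chrX:140956662-140956961 (GRCm38.p6, RefSeq, minus strand), with 3 CCAAT boxes on either strand in capitals.
Psmd10: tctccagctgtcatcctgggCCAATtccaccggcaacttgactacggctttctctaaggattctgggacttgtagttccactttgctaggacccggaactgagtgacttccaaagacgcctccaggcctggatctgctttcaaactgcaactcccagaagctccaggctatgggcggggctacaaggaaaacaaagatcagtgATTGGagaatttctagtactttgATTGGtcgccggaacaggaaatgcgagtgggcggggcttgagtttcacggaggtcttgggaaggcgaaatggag
Psmd5 went the other way: it lay between 6.95 and 8.15 (median 7.84) at E11.5, 7.18 and 8.29 (7.80) at E12.5, and 6.73 and 7.77 (7.25) at E16.5. Its fall of 0.57 log2 units at E16.5 against E12.5 (SE 0.20, limma adjusted p = 0.0399) was lost without any 1 of E12.5 replicates 2, 3, 6, 7 and 8 or E16.5 replicates 1, 2, 4 and 6 (up to 0.0875), after a further quantile normalization (0.0570), with arrays centred on their 75th percentile (0.0518), without E12.5 replicates 2 and 3 (0.178) and without E16.5 replicates 1 to 4 (0.207) or 5 to 8 (0.0772). Against E11.5 it changed by -0.39 ± 0.20 (limma adjusted p = 0.147). Psmd9 changed by 0.20 ± 0.15 against E11.5 (0.303).

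Of the 4 activators, Psme3 alone passed. Psme3 encodes the nuclear activator PA28-gamma and lay between 9.89 and 11.22 (median 10.64) at E11.5, 10.54 and 11.04 (10.81) at E12.5, and 10.02 and 10.95 (10.21) at E16.5. At E16.5, 6 of 8 arrays lay below all at E12.5. Its fall of 0.46 log2 units against E12.5 (SE 0.16, limma adjusted p = 0.0323) was lost without any 1 of E12.5 replicates 1, 2, 7 and 8 or E16.5 replicates 3, 4, 5, 6 and 7 (up to 0.0662), with arrays centred on their 75th percentile (0.0573), without E12.5 replicates 2 and 3 (0.0781) and without E16.5 replicates 1 to 4 (0.111) or 5 to 8 (0.109). Against E11.5 it changed by -0.23 ± 0.16 (limma adjusted p = 0.275).

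Psme1 and Psme2 together form the interferon-inducible activator of the immunoproteasome. Psme1 lay between 11.07 and 11.76 (mean 11.41) at E11.5, 11.43 and 11.89 (11.55) at E12.5, and 11.18 and 11.90 (11.55) at E16.5. Psme2 lay between 8.62 and 9.63 (median 9.05) at E11.5, 9.04 and 9.43 (9.27) at E12.5, and 8.85 and 9.37 (9.23) at E16.5. Both overlapped throughout and changed by 0.14 at E16.5 against E11.5 (SE 0.10 and 0.11, limma adjusted p = 0.301 and 0.332), while the inducible catalytic subunits passed in that comparison. The difference between these 2 results was not tested. Psme4, the activator PA200, lay between 9.97 and 10.51 (median 10.27) at E11.5, 9.93 and 10.33 (10.12) at E12.5, and 10.18 and 10.55 (10.36) at E16.5. Its change of 0.20 ± 0.08 against E12.5 did not pass (limma adjusted p = 0.0808) but did so with arrays centred on their 75th percentile (0.0225) and in a fit of those stages alone (0.0419). Its E16.5 arrays were lower in replicates 1 to 4 (mean 10.25) than in replicates 5 to 8 (10.46), with no overlap.

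Psmf1, or PI31, first described as an inhibitor of the core particle, fell by 0.39 log2 units at E16.5 against E11.5 (SE 0.13, limma adjusted p = 0.0246). It lay between 7.51 and 8.37 (median 8.17) at E11.5, 7.80 and 8.21 (7.86) at E12.5, and 7.22 and 8.31 (7.64) at E16.5, with 2 of 8 arrays at E16.5 below all at E11.5. The call was lost without any 1 of E11.5 replicate 8 and E16.5 replicates 3 and 6 (up to 0.0575), in a fit of those stages alone (0.0573), in the unequal-variance test (0.0825) and without E16.5 replicates 5 to 8 (0.178). Against E12.5 it passed only without E16.5 replicate 1 (0.0367). The core assembly chaperones Psmg1 to Psmg4 did not pass in any comparison. Their changes at E16.5 against E11.5 were between -0.08 and 0.20: Psmg1 lay between 9.36 and 10.93 (median 10.06) at E11.5, 9.95 and 10.73 (10.40) at E12.5, and 10.05 and 10.54 (10.34) at E16.5, and Psmg4 between 8.66 and 9.61 (9.16), 8.64 and 9.47 (9.28), and 8.56 and 9.71 (9.04) at those stages. Psme3ip1 fell by 0.31 log2 units at E16.5 against E11.5 (SE 0.09, limma adjusted p = 0.0116), between 9.24 and 9.88 (median 9.50) at E11.5, 9.31 and 9.55 (9.37) at E12.5, and 8.85 and 9.58 (9.19) at E16.5, with 5 of 8 arrays below all at E11.5. That call was lost without E16.5 replicates 5 to 8 (0.0929).

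Known controllers of proteasome genes are given beside the subunits. Of 6 measured, 3 rose at E16.5 against E11.5 and none fell, where 13.8% of all genes were higher and 19.6% lower. Nfe2l1, the factor that raises transcription of subunit genes when proteasome activity is short, lay between 9.54 and 10.18 (median 9.83) at E11.5, 9.85 and 10.49 (10.06) at E12.5, and 10.47 and 11.00 (10.67) at E16.5. All E16.5 arrays were above every array at E11.5, and 1 array at E12.5 reached the lowest of them. The rise was 0.84 ± 0.10 against E11.5 (limma adjusted p = 3.51e-07) and 0.58 ± 0.10 against E12.5 (7.17e-05). Ngly1, the glycanase that helps to activate Nfe2l1, rose by 1.14 ± 0.17 against E11.5 (limma adjusted p = 7.03e-06), between 7.20 and 8.59 (median 8.30) at E11.5, 8.44 and 8.84 (8.67) at E12.5, and 8.98 and 9.55 (9.16) at E16.5. Irf1, an interferon-response factor, rose by 0.19 ± 0.06 (limma adjusted p = 0.0220). The call of Irf1 was lost without E11.5 replicate 5 (0.0519), with arrays centred on their 75th percentile (0.0588) and without E16.5 replicates 1 to 4 (0.189). Its signal was low, with 2 of 8 arrays at E11.5 below the lower quartile of their array. Nfe2l2, a related factor, changed by 0.50 ± 0.22 (0.0848) and passed without E11.5 replicate 3 (0.0211). Over the same contrast the 49 members had a median change of 0.10 and a highest change of 1.21. Whether the activity of these factors changed was not measured.

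At E16.5 against E11.5, 13.8% of all genes were higher and 19.6% lower. Of 11 genes listed beside the rule as parts or partners, 2 were higher and 2 lower. One of the lower was Psmc3ip, the recombination factor, which is no partner of the proteasome, and the other was Pomp. Pomp, the chaperone that matures the beta rings, fell by 0.26 log2 units against E11.5 (SE 0.06, limma adjusted p = 0.00233) and by 0.33 against E12.5 (SE 0.06, 0.000235). It lay between 11.76 and 12.09 (median 11.96) at E11.5, 11.91 and 12.17 (11.98) at E12.5, and 11.52 and 11.86 (11.66) at E16.5, where all arrays were below every array at E12.5. Ecpas, a scaffold that holds proteasomes together and to other sites in the cell, rose by 0.93 ± 0.08 against E11.5 (3.69e-09), between 9.32 and 9.94 (median 9.63) at E11.5, 9.71 and 10.12 (9.84) at E12.5, and 10.29 and 10.79 (10.58) at E16.5. Its E16.5 arrays did not overlap either earlier stage. Zfand5, which binds and activates the proteasome and is induced in wasting muscle, rose by 0.51 ± 0.10 (0.000178). Upstream of the proteasome, Uba6, an activating enzyme for ubiquitin, fell by 0.67 log2 units (SE 0.21, limma adjusted p = 0.0178), a call lost without E16.5 replicates 1 to 4 (0.313), in a fit of those stages alone (0.0508) and in the unequal-variance test (0.0835). Ubqln2, a shuttle that carries ubiquitinated proteins, fell by 0.68 (SE 0.07, 9.39e-09). Of the other shuttle and unfoldase genes, Nploc4, a cofactor of the unfoldase Vcp, rose by 0.28 ± 0.09 (0.0185), a call lost without E16.5 replicates 1 to 4 (0.159) and in the unequal-variance test (0.0506). Ubqln4, a relative of Ubqln2, fell by 0.26 log2 units (SE 0.08, 0.0203), a call lost without E16.5 replicates 5 to 8 (0.125). Adrm1 was not analysed here, since it matched no single-gene probe set.

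**Figure D4:**
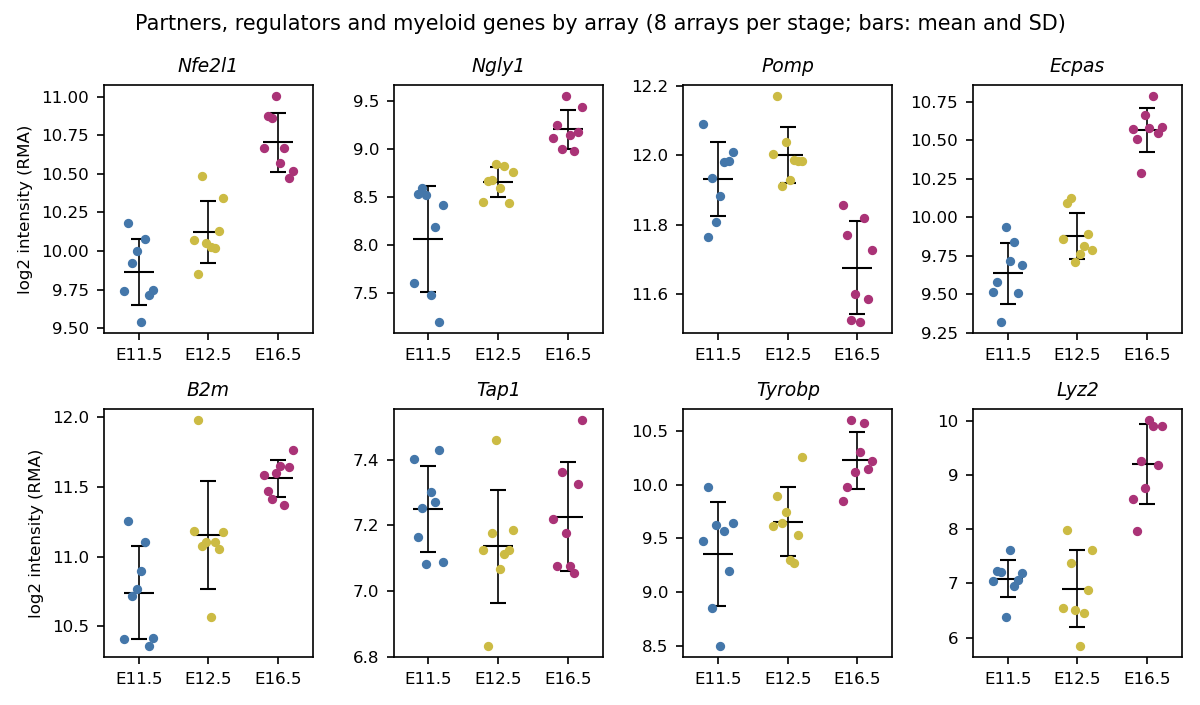
Log2 intensity of 8 genes outside the proteasome rule in each array (points) at the 3 stages, with the mean and SD of 8 arrays (bars); each panel has its own axis, which does not start at 0. Nfe2l1, Ngly1 and Ecpas have their highest means at E16.5, Pomp has its lowest there (11.52 to 11.86), and Tap1 overlaps at all stages while the means of B2m, Tyrobp and Lyz2 are higher at E16.5 than at E11.5.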

How the data were processed

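The deposited values are log2 intensities from RMA, which corrects background, quantile normalizes arrays and summarises probes. Per the submitters' processing notes, the tools were RMA, R 2.9.2 and Expression Console 1.1 of Affymetrix, with no role stated. Joint normalization of the 24 arrays is not given in the sources used here. The log2 scale was read from the values, which run from 2.56 to 14.1, with array medians of 7.45 to 7.57. The number of arrays, 8 per stage, limits the precision.

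Of 24200 probe sets, 20760 name 1 gene, 1140 several and 2300 none. Genes with several single-gene probe sets (804 genes, 5 of them members) kept the one with the highest mean. Stages were compared by lmFit and eBayes of limma 3.58.1, run in R 4.3.3, over all 24 arrays with 1 coefficient per stage, two-sided, adjusted by Benjamini-Hochberg over 19351 genes. The fit was tested on simulated data. Differences between inducible and constitutive subunits used exact two-sided permutation tests over arrays. Equal replicate numbers are not said to pair arrays and did not do so in the data, so no block was used. Of 131 entries in 13 lists of partners, regulators and markers, 115 matched a gene. The members and lists were chosen with earlier results of these data known. All members could be named. Values by stage are given for the 8 members with the largest changes past the threshold in each comparison, for inducible subunits and activators, and for the highest and lowest change of each role. Up to 3 genes past the threshold of each partner, regulator or class I list are also named, with Pomp, Nfe2l1 and Nfe2l2. Start windows are from RefSeq (GRCm38.p6). Alternatives changed the scaling, filter on dim genes, probe set rule, variance model, fit and arrays.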

Additional observations from a re-analysis of the deposited data

Results flagged for a closer look

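Within 147 sets of 8 arrays (49 genes at 3 stages), 15 held 1 array whose gap to the nearest other array exceeded 0.526 of the range of the set, the 95% limit of Dixon's test. Chance flags about 1 in 20 such sets. At E11.5 the arrays were low for Psma4 (10.05 in replicate 5), Psma7 (12.21 in replicate 1), Psmc1 (11.33 in replicate 8), Psmc4 (9.58 in replicate 2), Psmd12 (10.84 in replicate 2) and Psmd8 (8.99 in replicate 5). They were high there for Psmb3 (11.29 in replicate 8) and Psmb9 (9.11 in replicate 2). At E12.5, replicate 2 was high for Psma8 (7.40) and Psme1 (11.89), and replicate 3 was low for Psmd8 (9.65). At E16.5, replicate 7 was high for Psma8 (6.39), replicate 6 was low for Psmc2 (10.20) and Psme2 (8.85), and replicate 3 was low for Psmd2 (10.22). E11.5 replicate 2 held 3 of the 15 and no other array held more than 2. E12.5 replicate 2, in which Psma8 reached 7.40, was also the array with the highest hepatocyte and erythroid means of its stage (12.12 and 10.89).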

How the results depend on the processing

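Results for single members were counted once per member, comparison and alternative other than leaving out 1 array, so a member counts many times. Against the deposited values, 1949 of these kept their side of the threshold, 69 lost a call, 28 gained one and 0 called changes turned sign. Only the 8 calls in E16.5 versus E12.5 and the 15 in E16.5 versus E11.5 could be lost. Most of the 1949 are therefore members that were not called to begin with, and that number does not measure how stable the calls were. Of markers, Mki67 did turn: its fall at E16.5 became 0.02 against E12.5 and 0.03 against E11.5 without E16.5 replicates 1 to 4. The count of changed members in E12.5 versus E11.5 was 0, and 1 with a trended, robust variance prior. In E16.5 versus E12.5 it was 8, but 5 without E12.5 replicates 2 and 3 and 3 without E16.5 replicates 5 to 8, and 12 with array weights and 11 both in a fit of those stages alone and after a further quantile normalization. In E16.5 versus E11.5 it was 15, but 9 in the unequal-variance test, 8 without E16.5 replicates 1 to 4 and 9 without replicates 5 to 8. Leaving out 1 array at a time gave counts of 0 to 1, 5 to 10 and 11 to 16 in these comparisons, with 5 without E12.5 replicate 8 or E16.5 replicate 6, and medians of 0.08 to 0.13, -0.06 to -0.02 and 0.08 to 0.13. The median in E16.5 versus E11.5 was -0.02 after a further quantile normalization.

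Replicate numbers did not pair the arrays: deviations of same-numbered arrays from their stage means correlated at -0.28 to 0.09, above 0.1 in 0 of 24 pairs, and 1 array matched its own number best. With the number as a block the counts were 0, 7 and 13. Psmb8 then passed at E16.5 against E12.5, and Nfe2l2 at E16.5 against E11.5 (limma adjusted p = 0.0478 and 0.0287). The block ended the calls of Psmc4 and Psmd5 at E16.5 against E12.5 (limma adjusted p = 0.0760 and 0.0584). It also ended those of Psma3, Psmb4 and the marker Cd3e at E16.5 against E11.5 (limma adjusted p = 0.0548, 0.0623 and 0.0638).

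Differences between inducible and constitutive subunits passed only in some alternatives, which include leaving out E11.5 replicate 2 or E16.5 replicate 1 (exact permutation, adjusted p of 0.0196 to 0.0420). Psmb9 over Psmb6 was 0.63 against E11.5 and 0.44 against E12.5 after a further quantile normalization, and Psmb8 over Psmb5 was 0.58 at E16.5 against E12.5 without E16.5 replicates 1 to 4. With 1 array left out, Psmb9 over Psmb6 ranged over 0.16 to 0.31 (E12.5 against E11.5), 0.24 to 0.39 (E16.5 against E12.5) and 0.45 to 0.63 (E16.5 against E11.5), Psmb8 over Psmb5 over -0.10 to 0.06, 0.16 to 0.41 and 0.13 to 0.38, and Psmb10 over Psmb7 over 0.03 to 0.15, -0.02 to 0.12 and 0.08 to 0.22. The causes of these changes were not tested.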
